A study of Danio rerio with 697 samples.

Results

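The cells described here are the insulin-high cells of zebrafish larvae whose beta cells carried a csn-gated channel, after 48 h of csn set against 24 h. The cells were chosen by 4 measured values of each well, which are therefore descriptions and not findings. These were at least 200 detected genes, at most 40% of gene counts on the 13 mitochondrially encoded proteins, more than 1000 counts on the insulin gene *ins*, and at least 50000 gene counts. Of the 520 wells of the 24-h and 48-h groups, among 693 wells with a treatment label, 373 passed, 238 of them at 48 h and the rest at 24 h. The larvae of both groups carried *Tg(ins:TRPV)* together with *Tg(ins:Kaede)*, in which the *ins* promoter drives the channel and the green fluorescent protein Kaede, and 20 larvae were used per treatment. By the labels, 24-h larvae received csn from 4 dpf and 48-h larvae from 3 dpf, and both were collected at 5 dpf, whereas the text of the study gives 3 dpf as the start for both. The 48-h wells carry 2 set numbers on the same plate, and every 48-h value is given for each set. Neither the labels nor the study say what a set is, so agreement of the sets is not replication. Insulin-high cells of *Tg(ins:Kaede)* larvae, which lack the channel and received csn for 48 h, served as background, and 95.4% of their wells passed the same limits. Cells were sorted for green fluorescence and for calcein, a dye kept by living cells, so cells that had lost either were not collected. Each well was a Smart-seq2 library of its own, in which polyadenylated RNA of 1 cell was amplified without molecular identifiers.

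Beta cells release insulin when glucose metabolism closes potassium channels, the membrane depolarizes and calcium enters through voltage-gated channels. TRPV1 is a cation channel opened by capsaicin (csn), and its presence in beta cells lets csn carry calcium into the cell without glucose. Sustained calcium load is known to burden mitochondria, the endoplasmic reticulum (ER) and the secretory pathway of beta cells. The larval islet also holds alpha cells, which make glucagon, and delta cells, which make somatostatin.

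Plate 1 held the control cells, plate 2 those of 24 h and plate 3 those of 48 h, and duration and plate cannot be told apart. No label names the larva behind a cell, and each duration therefore is 1 sample (n = 1). Cells of a plate are not replicates of a duration, and no test was run. Levels are pooled counts scaled to the gene counts of each group (counts per 1e6, CPM), with exact 95% Poisson intervals where given. Shares of cells carry exact Clopper-Pearson 95% intervals and were taken after each cell had been thinned at random to 50000 counts, since depth differed. The Poisson intervals treat reads as independent and are too narrow, because PCR copies of a molecule are not independent. The Clopper-Pearson intervals treat cells as independent draws. Neither kind covers differences between larvae or plates, so intervals that do not overlap are a description.

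The *ins* limit chose the cells, and *ins* (chromosome 5, 37854685 to 37857696 in GRCz11) is given as a description. It made up 13.4% of the pooled counts at 24 h, 13.2% in 48-h set 1, 11.6% in set 2 and 11.6% in control cells. In single cells its share ran from 0.265% to 32.3% at 24 h, with a median of 12.4%. At 48 h the medians were 13.6% in set 1 and 10.6% in set 2, and the ranges overlapped, from 0.517 to 27.9% in set 1 and from 0.796 to 31.6% in set 2. The lowest kept cells held 1619 *ins* counts at 24 h, 1958 in set 1 and 1998 in set 2. The highest cells left out by this limit alone held 429 counts at 24 h, 714 in set 1 and 610 in set 2, and 2 kept cells at 24 h and 1 in each set held fewer than 2000. The limits kept 87.7% of the 24-h wells (81.4 to 92.4%), 48.3% of the wells of set 1 (39.8 to 56.8%) and 75.8% of those of set 2 (69.6 to 81.3%).

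**Figure D1:**
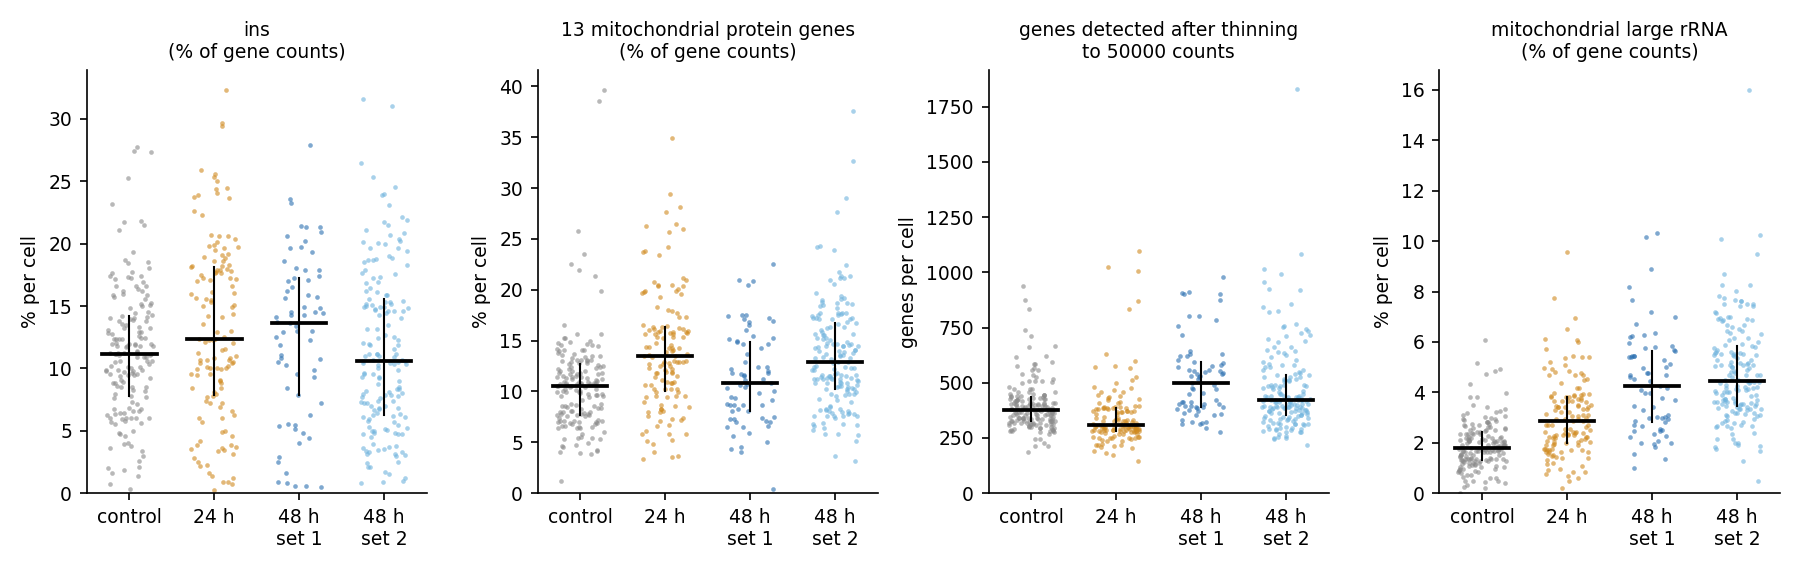
Each point is 1 insulin-high cell of the control larvae, of 24 h or of a 48-h set; the panels show, per cell, the percentage of gene counts on *ins*, on the 13 mitochondrial protein-coding genes and on the mitochondrial large ribosomal RNA, and the number of genes detected after thinning to 50000 counts. Horizontal bars are medians and vertical bars the quartiles; *ins* shares overlap between all groups, while the thinned number of genes has its lowest median, 310, at 24 h.

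Kept cells had a median of 532705 gene counts at 24 h, 420614 in set 1 and 452950 in set 2. Although the 24-h cells were deeper, fewer genes were detected in them. After thinning, the median was 310 genes per cell at 24 h, 500 in set 1 and 421 in set 2, beside 375 in control cells. This breadth moved with the comparison as a whole: of the genes tested, 70.6% had a larger share of thinned cells in both 48-h sets than at 24 h and 8.98% a smaller share in both. Its part in the other results was not tested.

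Of 8 beta-cell markers, the 4 that could be tested were below the 24-h level in the 48-h pool and 0 were called. *ins* is among the 4, and since its limit chose the cells it is no check of their identity. The share of cells with *ins* was fixed by the limit. *pdx1*, a transcription factor that beta cells need for insulin expression, was read in 84.4% of thinned cells at 24 h, 91.3% in set 1 and 85.2% in set 2. Its pooled level was 6124 CPM at 24 h, 6002 CPM in set 1 and 5329 CPM in set 2, and it was not called. The transcription factors *mnx1* and *nkx6.2* were lower in both sets without being called: *mnx1* stood at 365 CPM at 24 h, 303 CPM in set 1 and 206.2 CPM in set 2, and *nkx6.2* at 600.3, 176.2 and 389 CPM in the same order, beside 18.1 CPM in control cells. Of the markers that could not be tested, *insb*, a second insulin gene, was at 0 throughout. *slc30a8*, which loads zinc into insulin granules, stayed at or below 0.39 CPM in every group. The remaining markers could not be tested either, and their levels, which need not be near 0, are not given.

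A gene was tested if 25% of the cells of one duration or the other held a count of it, which was so for 1158 genes. It was called if the pooled 48-h level and each set alone were at least 2-fold away from 24 h in the same direction, on the scale log2(CPM + 1). By this rule 235 genes (20.3%) were called, 13.1% of the tested genes being higher at 48 h and 83 genes (7.17%) lower. Of the 295 genes that passed the 25% limit only through the 48-h cells 8 were lower and the others called were higher, and of the 67 that passed only through the 24-h cells 30 were lower and 1 was higher. Such genes had to differ in the share of cells with a count, so their number is no support for a difference. Among the 796 genes that reached 25% on both sides, the calls were even, with 48 higher and 45 lower. The median log2 ratio of all tested genes was 0.05 in the pool and 0.03 in each set.

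**Figure D2:**
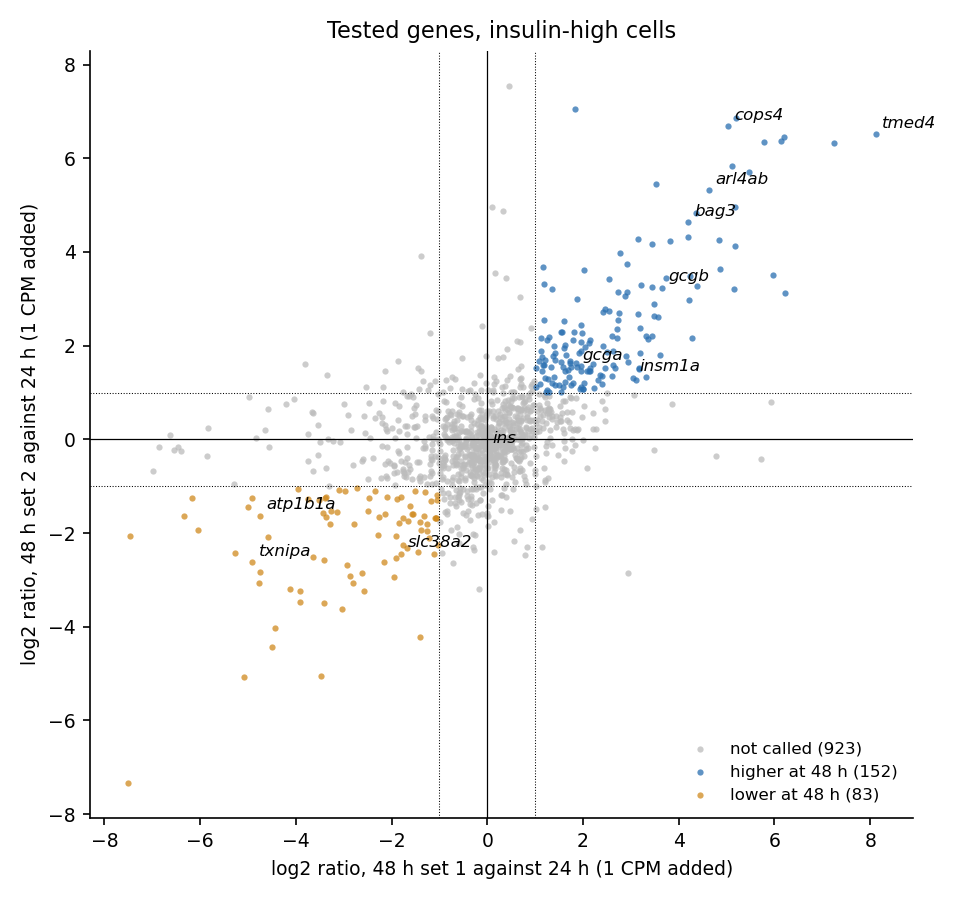
Each point is 1 of the 1158 tested genes; the horizontal axis gives the log2 ratio of 48-h set 1 against 24 h and the vertical axis that of set 2, both with 1 CPM added, with dotted lines at 2-fold. Blue points are the genes called higher (13.1%) and orange points those called lower (7.17%); since both sets share the 24-h cells as denominator, points on the diagonal are in part fixed by the 24-h value.

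For 20 genes (1.73%) the sets were 2-fold away from 24 h in opposite directions. The median distance of a tested gene between set 1 and set 2, which share a plate and a duration, was 0.66 on the log2 scale. That from 24 h was 0.76 for set 1, 0.61 for set 2 and 0.59 for the pooled 48-h cells, so the distance between the sets lay between those of the single sets from 24 h. At least 2-fold higher in set 1 than in set 2 were 14.4% of the tested genes, and 19.8% were at least 2-fold lower. For the 100 genes over 1000 CPM at either duration, the distance was 0.39 between the single sets and 0.28 between pooled 48-h and 24-h cells. Pooling averages the sets, so these distances are unlike measures and do not rank sets against durations. Of the 100 genes 3 were called higher and 0 lower. Those 3 were the glucagon genes *gcga* and *gcgb* and *higd1a*, a mitochondrial protein known to be induced by hypoxia. Of the 235 called genes, 231 were read in under 50% of thinned cells at 24 h and in each set. The cell with the most counts held a median of 21.2% of the 48-h counts of a higher gene and 40.3% of the 24-h counts of a lower gene, beside 17.2% and 32.8% over all tested genes. A cell with at least 50% of the 24-h counts was found for 25 lower genes (2.16% of those tested), and 6 lower genes (0.518%) had no cell with more than 20%. At 48 h the same numbers for higher genes were 9 (0.777%) and 70 (6.04%). The rules for naming given with the processing cover 52 called genes, and not *higd1a* or genes named after their values were seen. Of these 52, 42 were also called when the cell with the most counts of the gene was left out of each group. The 10 that were not are *si:ch211-276i12.9*, *cacna1da*, *ctsla*, *sdhb*, *psmc1a*, *psmd8*, *eif3d*, *eif3ba*, *krt18b* and *serpina1*. The count of 42 is in part fixed by the choice of genes, since the largest rises and falls were taken without a cell above 20%. Leaving out the top cell of the lower side can also widen a ratio, as for *arpc2*, from 3.02 to 5.32 on the log2 scale. The share of thinned cells followed the level in both sets for 12.3% of the tested genes among the higher ones and for 3.89%, or 45 genes, among the lower ones. Beside this, 70.6% of all tested genes had a larger share in both sets and 8.98% a smaller one. For genes tested only through the 48-h or only through the 24-h cells, the filter in part fixed this direction. These numbers are therefore no support for the levels.

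Of the 15 largest rises in which no cell held more than 20% of the 48-h counts, 14 are described. They were of genes at 0.363 to 38.6 CPM at 24 h, and since a low 24-h level favours the choice, control levels above it are a description. *tmed4*, which sorts cargo between the ER and the Golgi, stood at 0.363 CPM at 24 h (0.237 to 0.532), 376 CPM in set 1 and 124.2 CPM in set 2, and control cells held 197.6 CPM. It was read in 2.96% of thinned cells at 24 h (0.813 to 7.41%), 14.5% in set 1 (7.17 to 25.0%) and 6.51% in set 2 (3.29 to 11.3%), with overlapping intervals. *tmed4* passed the 25% limit only through the 48-h cells, so a larger share at 48 h before thinning was fixed by its being tested. *cops4*, a subunit of the COP9 signalosome, went from 2.08 CPM at 24 h to 99.3 CPM in set 1 and 316 CPM in set 2, the latter at the control level of 317 CPM. Its share of cells was 2.22% at 24 h (0.461 to 6.36%), 21.7% in set 1 (12.7 to 33.3%) and 13.0% in set 2 (8.34 to 19.04%), with no overlap of the intervals. *arl4ab*, a small GTPase, followed the same order, with 4.33 CPM at 24 h, 130.6 CPM in set 1, 212.4 CPM in set 2 and 709 CPM in control cells. The uncharacterized *si:ch211-276i12.9* was at 0.852 CPM at 24 h and 244 CPM in set 2, but only 5.62 CPM in set 1, so its rise of 6.59 on the log2 scale in the pool was carried by set 2.

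*bag3*, a co-chaperone of HSP70 (chromosome 13, 25486608 to 25498661 in GRCz11), was also among them. Its pooled level was 26.02 CPM at 24 h (24.8 to 27.2), 491 CPM in set 1 (483 to 499) and 672 CPM in set 2 (666 to 677), a rise of 4.53 on the log2 scale. Control cells were higher than all of them, at 1547 CPM. Single 24-h cells ranged from 0 to 2227 CPM with a median of 1.62 CPM, and set 2 cells from 0 to 12011 CPM with a median of 3.46 CPM, so that most cells of both durations were near 0. The share of thinned cells with a count was 18.5% at 24 h (12.4 to 26.1%), 33.3% in set 1 (22.4 to 45.7%), 34.9% in set 2 (27.8 to 42.6%) and 51.5% in control cells.

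Of the other genes with the largest rises, *ube2a*, which attaches ubiquitin to target proteins, stood at 31.4 CPM at 24 h, 221.5 CPM in set 1 and 514 CPM in set 2. Its share of thinned cells was 5.19% at 24 h (2.11 to 10.4%), 23.2% in set 1 (13.9 to 34.9%) and 22.5% in set 2 (16.4 to 29.5%), and 57.2% of its 24-h counts came from 1 cell. *prlra*, a prolactin receptor, was at 26.4 CPM at 24 h, 207.6 CPM in set 1 and 369 CPM in set 2. *eif4ebp1*, a repressor of cap-dependent translation, was at 8.505 CPM at 24 h, 338 CPM in set 1 and 86.5 CPM in set 2. The remaining 6 were *yif1a*, *CYRIA*, *si:ch73-238c9.1*, *arpc2*, *TMEM14C* and *gusb*, with rises of 2.77 to 4.04 on the log2 scale. In *CYRIA*, *arpc2*, *gusb* and *si:ch73-238c9.1*, 1 cell held at least 80.2% of the 24-h counts.

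**Figure D3:**
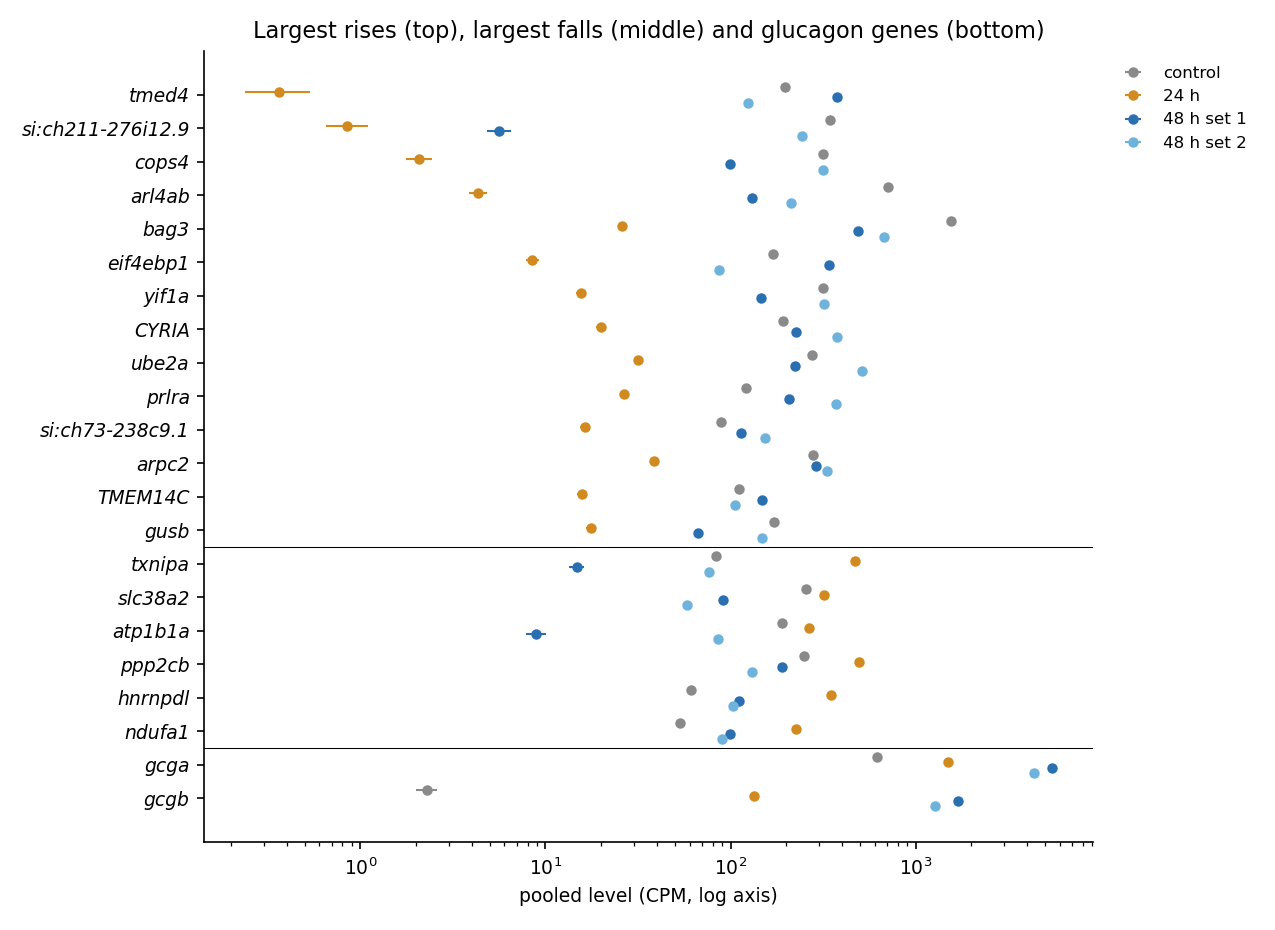
Points are pooled levels in CPM on a log axis, with exact 95% Poisson intervals, for 14 of the 15 called genes with the largest rises among those with no cell above 20% of the 48-h counts, the 6 called falls in which no cell held more than 20% of the 24-h counts and the glucagon genes *gcga* and *gcgb*, in control cells, 24-h cells and the 48-h sets. In the upper block the 24-h point lies left of both 48-h points in every row, which the choice of these genes fixes.

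The falls were fewer, and 6 called genes had no cell with more than 20% of the 24-h counts. *txnipa*, the counterpart of a thioredoxin-binding protein that glucose induces in mammalian beta cells (chromosome 19, 24488403 to 24492326), stood at 472 CPM at 24 h (467 to 477), 14.7 CPM in set 1 (13.4 to 16.1) and 76.1 CPM in set 2 (74.2 to 78.04), a fall of 2.98 on the log2 scale. Control cells held 83.7 CPM. It was read in 17.04% of thinned cells at 24 h (11.1 to 24.5%), 2.90% in set 1 (0.353 to 10.1%), 4.14% in set 2 (1.68 to 8.35%) and 4.85% of control cells, and the 24-h interval lay above those of both sets. *txnipa* was the 1 tested gene among 11 measured members of the list of glucose-responsive transcription targets. On the 24-h side the top cell held 19.8% of the counts, and on the 48-h side 68.97%. Without the top cell of each group the log2 ratio was -4.31, and with a mitochondrial limit of 20% it was -1.75. *hnrnpdl*, an RNA-binding protein of splicing, was at 350.1 CPM at 24 h, 110.4 CPM in set 1 and 103.3 CPM in set 2, beside 61.2 CPM in control cells. *ppp2cb*, a catalytic subunit of the phosphatase PP2A, was at 496 CPM at 24 h, 189.1 CPM in set 1 and 130 CPM in set 2. *slc38a2*, a transporter of neutral amino acids, was at 319 CPM at 24 h, 91.1 CPM in set 1 and 57.9 CPM in set 2, but its log2 ratio shrank from -2.23 to -0.45 once cells with another islet hormone were left out. In *ndufa1*, a subunit of respiratory complex I, the level and the share of cells went opposite ways: 225 CPM at 24 h against 98.9 and 90.1 CPM in the sets, in 13.3% of thinned cells at 24 h against 24.6% and 15.98%.

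Of the other islet hormones, which did not enter the choice of cells, both glucagon genes were called higher. *gcga* (chromosome 22, 11617520 to 11626018) encodes glucagon. It was at 1490 CPM at 24 h (1482 to 1499), 5435 CPM in set 1 (5410 to 5461) and 4372 CPM in set 2 (4358 to 4387), and at 620.0 CPM in control cells. The share of thinned insulin-high cells with a *gcga* count was 47.4% at 24 h (38.8 to 56.2%), 72.5% in set 1 (60.4 to 82.5%) and 78.7% in set 2 (71.7 to 84.6%), and the interval at 24 h lay below those of both sets. The median cell held 9.61 CPM at 24 h, 36.1 CPM in set 1 and 70.9 CPM in set 2, so most of these cells had few reads of it. In low-insulin wells, which passed the other limits with at most 1000 *ins* counts, a *gcga* count was found after the same thinning in 7 of 13 wells at 24 h, 27 of 39 in set 1 and 12 of 17 in set 2. More than 1000 *gcga* counts were found in 16.3% of insulin-high cells at 24 h (10.5 to 23.6%), 11.6% in set 1 (5.14 to 21.6%) and 28.99% in set 2 (22.3 to 36.5%), so that by this stricter measure set 1 lay below 24 h with overlapping intervals. In set 1, 48.9% of the *gcga* counts came from 1 cell, and without the limit on *ins* the log2 ratio of the pool was 0.91 in place of 1.65.

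*gcgb*, the other glucagon gene (chromosome 9, 51265283 to 51271597), was at 133.2 CPM at 24 h, 1692 CPM in set 1, 1269 CPM in set 2 and 2.28 CPM in control cells. Its share of thinned cells was 11.1% at 24 h (6.35 to 17.7%), 34.8% in set 1 (23.7 to 47.2%) and 23.7% in set 2 (17.5 to 30.8%). More than 1000 *gcgb* counts were found in 2 cells at 24 h, 5 in set 1 and 6 in set 2, and 70.5% of the 24-h counts came from 1 of those cells. The somatostatin genes were not called. *sst1.1* was at 13041 CPM at 24 h, 9880 CPM in set 1 and 26525 CPM in set 2, *sst1.2* at 3025, 5620 and 3960 CPM and *sst2* at 11014, 18049 and 11973 CPM in the same order. A random thinned 48-h cell nevertheless held more *sst1.1* than a random 24-h cell in 66.1% of pairs, with ties counted to equal parts. The same value was 62.7% for *sst2* and 60.4% for *sst1.2*, beside 67.1% for *gcga*. *sst1.1* was read in 70.4% of thinned cells at 24 h, 81.2% in set 1 and 95.9% in set 2. The intervals of 24 h and set 1 overlapped. Summed over 5 delta-cell markers the level was 27115 CPM at 24 h, 33758 CPM in set 1 and 42721 CPM in set 2, beside 5841 CPM in control cells. Of all insulin-high cells, 33.3% at 24 h (25.5 to 42.0%), 27.5% in set 1 (17.5 to 39.6%) and 47.3% in set 2 (39.6 to 55.1%) held more than 1000 counts of *gcga*, *gcgb*, *sst1.1*, *sst1.2* or *sst2*. The sets lay on either side of the 24-h value. Without all these cells, which are in part defined by both glucagon genes, the log2 ratio of *gcgb* was 1.008 in place of 3.37 and that of *gcga* 2.00 in place of 1.65. Without the limit on *ins* the ratio of *gcgb* was 1.48.

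Among islet transcription factors, 2 of 9 tested members were called higher and 0 lower, with a median log2 ratio of 0.17. Over all tested genes 13.1% were called higher and 7.17% lower, which is the background for this and every list below. This background includes the genes that passed the 25% limit only through the cells of one duration. Among the 796 genes that reached 25% on both sides, 48 were higher and 45 lower. The lists were not split in this way, so the background is not matched to lists of widely detected genes. *insm1a*, an endocrine differentiation factor, was at 45.9 CPM at 24 h, 387 CPM in set 1, 116.1 CPM in set 2 and 191.5 CPM in control cells. Its share of cells was 9.63% at 24 h, 24.6% in set 1 and 11.2% in set 2, and the 24-h interval overlapped those of both sets. *egr4*, an activity-regulated transcription factor listed both here and with the immediate early genes, was at 25.0 CPM at 24 h, 237 CPM in set 1 and 134.01 CPM in set 2. Of the 11 tested genes of the secretory granule, 2 were called higher. *dkk3b*, a secreted protein also listed as a delta-cell marker, was at 31.1 CPM at 24 h, 175.1 CPM in set 1 and 219.96 CPM in set 2, and its log2 ratio of 2.70 shrank to 0.52 without cells holding another hormone. *vat1* was at 6.37 CPM at 24 h, 36.8 CPM in set 1 and 17.97 CPM in set 2. Without the limit on *ins* its log2 ratio was 5.22 in place of 1.72. The granule proteins *scg3* and *chga* and the processing enzyme *cpe* were not called.

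Calcium handling showed calls in either direction, beside 13.1% higher and 7.17% lower over all tested genes. *calm3b* encodes calmodulin, the calcium sensor shared by several paralogous genes, between which short reads may be divided (chromosome 21, 26726936 to 26732085). It was at 405 CPM at 24 h (401 to 410), 1142 CPM in set 1 (1130 to 1154), 911 CPM in set 2 (904 to 918) and 1391 CPM in control cells. It was read in 28.1% of thinned cells at 24 h (20.8 to 36.5%), 57.97% in set 1 (45.5 to 69.8%) and 48.5% in set 2 (40.8 to 56.3%), with the 24-h interval below both. A random 48-h cell held more *calm3b* than a random 24-h cell in 62.7% of pairs, with ties counted to equal parts. The paralogs *calm1a* and *calm2b* were not called, with 447 CPM of *calm1a* at 24 h against 472 and 451 CPM in the sets. Of the 7 tested genes of calcium pumps, stores and sensors, the other called member was *letm1*, an ion exchanger of the mitochondrial inner membrane, at 218.1 CPM at 24 h, 16.5 CPM in set 1 and 37.7 CPM in set 2, with 70.9% of the 24-h counts in 1 cell. Of 4 tested genes of excitability, *cacna1da*, an L-type calcium channel subunit, was called higher from 1.93 CPM at 24 h to 17.7 CPM in set 1 and 7.46 CPM in set 2, in 6.67% of thinned cells at 24 h and 8.70% and 5.92% in the sets. In each set 1 cell held at least 75% of its counts, and without the top cells the levels were 1.53 CPM at 24 h, 2.86 CPM in set 1 and 1.87 CPM in set 2. *atp1b1a*, a subunit of the sodium pump, was lower, at 266 CPM at 24 h, 8.89 CPM in set 1 and 85.3 CPM in set 2.

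In the exocytosis list, 2 of 5 tested genes were called higher and 0 lower, and the median log2 ratio was 0.97, beside 13.1% higher, 7.17% lower and a median of 0.05 over all tested genes. *syt1a*, a calcium sensor of vesicle fusion, was at 43.6 CPM at 24 h, 128.6 CPM in set 1, 217.4 CPM in set 2 and 114.95 CPM in control cells. Its share of cells was 5.19% at 24 h (2.11 to 10.4%), 21.7% in set 1 (12.7 to 33.3%) and 17.8% in set 2 (12.3 to 24.4%). *vamp3*, a SNARE protein of vesicles, was at 0.321 CPM at 24 h, 95.7 CPM in set 1 and 114.2 CPM in set 2, with 80.5 CPM in control cells. The remaining 3 were *cplx2a*, *rims2a* and *rims2b*, with log2 ratios of 0.97, -1.01 and -0.33.

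**Figure D4:**
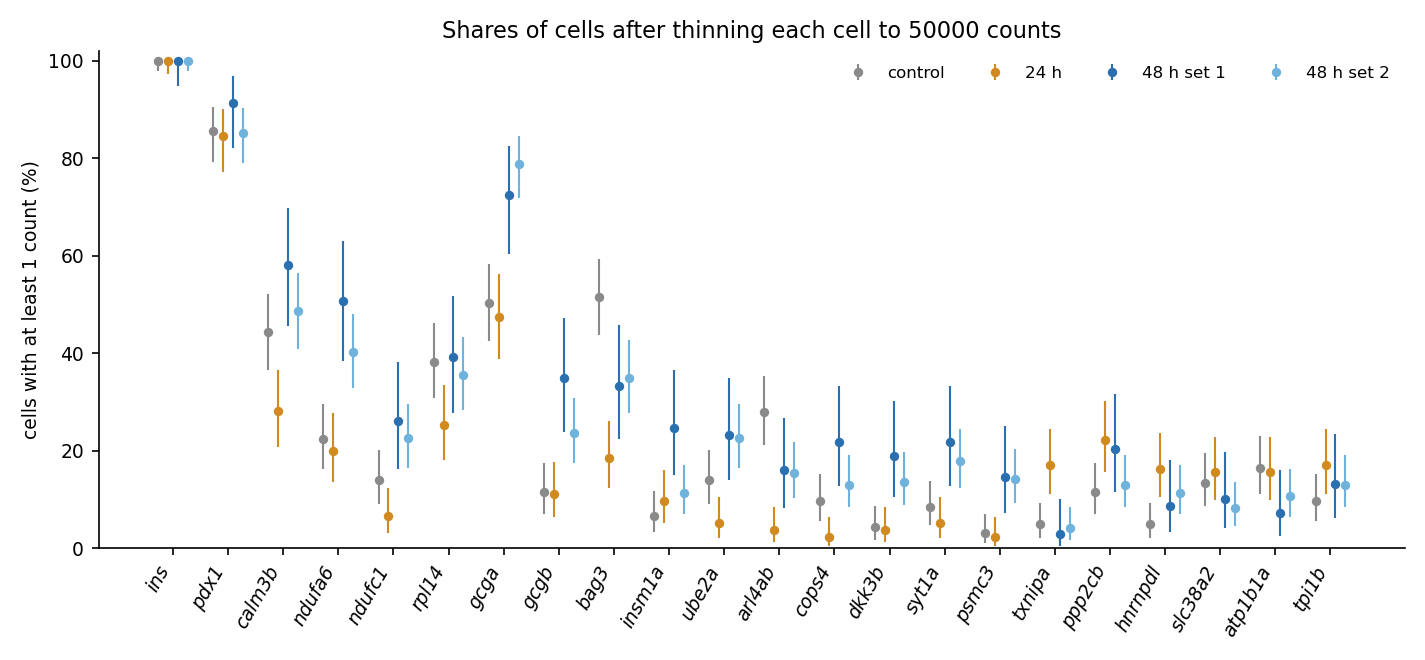
Points are the percentage of insulin-high cells with at least 1 count of a gene after thinning to 50000 counts, with exact Clopper-Pearson 95% intervals, in control cells, 24-h cells and each 48-h set, for 22 of the genes described. The 24-h interval lies below those of both sets for *calm3b*, *ndufa6*, *ndufc1*, *gcga*, *ube2a*, *cops4*, *dkk3b*, *syt1a* and *psmc3*, and above both only for *txnipa*. Over all tested genes it lay below both for 4.06% and above both for 1 gene (0.0864%). These shares are in part fixed by the choice of tested genes, of which 295 passed only through 48-h cells and 67 only through 24-h cells.

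Heat shock proteins bind unfolded proteins in the cytosol and mitochondria. Of 22 tested members, 1 was called higher (*bag3*) and 1 lower, with a median log2 ratio of -0.19 in the pool, -0.58 in set 1 and -0.02 in set 2. Over all tested genes 13.1% were called higher and 7.17% lower. The summed level of the whole list was 67677 CPM at 24 h, 49521 CPM in set 1 and 66333 CPM in set 2, beside 153972 CPM in control cells. The most abundant members were the HSP70 copies *hsp70l*, *hsp70.1*, *hsp70.2* and *hsp70.3*, near-identical genes between which reads are uncertain, and *hsp90aa1.2*. *hsp90aa1.2* was at 14883 CPM at 24 h, 5992 CPM in set 1 and 14615 CPM in set 2, a difference in set 1 alone. The lower gene was *cct3*, a subunit of the chaperonin that folds actin and tubulin, at 188.3 CPM at 24 h, 20.5 CPM in set 1 and 63.4 CPM in set 2. Of 19 tested genes of ER chaperones and the unfolded protein response, 0 were called higher and 1 lower, and the median log2 ratio was 0.04 in the pool, -0.36 for set 1 and 0.23 for set 2. *hspa5*, the main ER chaperone, was at 918 CPM at 24 h, 508 CPM in set 1 and 1276 CPM in set 2, beside 4505 CPM in control cells. The called gene was *atf4b*, a transcription factor of the stress response to amino acid lack and unfolded protein, at 361 CPM at 24 h, 150.03 CPM in set 1 and 92.7 CPM in set 2. Its log2 ratio of -1.72 became 0.10 without cells that held another hormone.

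Immediate early genes are switched on within minutes of calcium entry or other stimuli. Of 13 tested members, *egr4* was called higher and *gadd45bb* lower, the latter at 349 CPM at 24 h, 8.03 CPM in set 1 and 64.01 CPM in set 2, with 49.01% of the 24-h counts in 1 cell. *fosab* was at 1631 CPM at 24 h, 2247 CPM in set 1 and 2408 CPM in set 2 and was not called. Among the 9 tested genes of apoptosis and p53, 0 were called in either direction, beside 13.1% higher and 7.17% lower over all tested genes. *mcl1a*, which protects cells from mitochondrial cell death, was at 1649 CPM at 24 h, 1357 CPM in set 1 and 2986 CPM in set 2, beside 7239 CPM in control cells, and *ccng1*, a p53 target, at 447, 269 and 676 CPM in the order 24 h, set 1 and set 2. No member was called among 9 tested antioxidant genes, 5 tested genes of inflammation and complement, 2 of the circadian clock and 1 of the cell cycle, and no gene of cholesterol and fatty acid synthesis was tested. The iron store *fthl27* was at 2014 CPM at 24 h, 541 CPM in set 1 and 1251 CPM in set 2, while *gstp1.2*, which conjugates glutathione, was at 418, 376 and 343 CPM. *cebpd*, a transcription factor of the acute phase response, was at 128.2, 150.2 and 427 CPM. *nfkbiab*, an inhibitor of NF-kB, was at 409, 104.6 and 249 CPM. Without cells holding another hormone its log2 ratio was 1.75 in place of -0.97. *hmgb2b*, a chromatin protein of dividing cells, was at 520.2, 520.2 and 601 CPM. The untested *ccnd1* of the cell cycle list had a log2 ratio of -3.34, and of -1.02 with a mitochondrial limit of 20%. The ratios of *hmgcra* and *msmo1*, of cholesterol synthesis, were -1.31 and 0.29. Those of *tefa* and *per2*, of the circadian clock, were -0.82 and -0.09.

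The list of genes that the study names holds 16 genes of the table, of which 10 were tested with 0 called in either direction. Of these 16, 13 carry the study's spelling, and *ndufa4b*, *ndufa4l2a* and *cd28* are only close in name to *ndufa4* and *cd28b*, so they may be other genes than those meant. Of the 13, 8 were tested, among them *ins*, by which the cells were chosen. The study reports these genes as higher or lower in some of its cell clusters than in the others. That is not the comparison of durations made here, so the absence of calls does not bear on it. It describes the cluster with raised *aldh1a3* as lower in *ins*, and the limit on *ins* leaves out cells low in *ins*. Over all tested genes 13.1% were called higher and 7.17% lower. *jdp2b*, a partner of AP-1 transcription factors, was at 206.04 CPM at 24 h, 62.1 CPM in set 1 and 250.5 CPM in set 2, beside 428 CPM in control cells, with 35.2% of the pooled 48-h counts in 1 cell. *ndufa4l2a*, related to a subunit of respiratory complex IV, was at 2564 CPM at 24 h, 2247 CPM in set 1 and 1942 CPM in set 2. *coq5*, an enzyme of ubiquinone synthesis, was at 98.3, 139.8 and 101.1 CPM, and *acin1b*, which condenses chromatin in apoptosis, at 47.7, 35.7 and 32.6 CPM with 44.04% of its 24-h counts in 1 cell. The complement gene *c3b.1* was at 3.44, 5.07 and 4.39 CPM and *c3a.3* at 1.09, 1.93 and 2.36 CPM. *cd28*, a co-stimulatory receptor of T cells, was at 4.87, 11.3 and 6.01 CPM, with 64.9% of the set 1 counts in 1 cell and 4.03 CPM in set 1 without it, and *CR925773.1* at 1.38, 0.899 and 1.27 CPM. *aldh1a3*, *bida*, *nfkbiaa*, *ndufa4b*, *zap70* and *ikzf2* did not reach the limit for testing, and they stayed at or below 3.11 CPM at 24 h and in each set. This depended on the limit on *ins*: without it the log2 ratio was 4.68 in place of 0.05 for *aldh1a3*, 4.89 in place of 0.0056 for *nfkbiaa* and 1.85 in place of 0.04 for *bida*.

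Of the 62 tested nuclear genes of the respiratory chain and ATP synthase, 2 were called higher and 2 lower, and the median log2 ratio was 0.00. Over all tested genes 13.1% were called higher and 7.17% lower. *ndufa6*, an accessory subunit of complex I, was at 195.6 CPM at 24 h (192.4 to 198.9), 750 CPM in set 1 (740 to 759), 410.4 CPM in set 2 (406 to 415) and 140.6 CPM in control cells. Its share of thinned cells was 20.0% at 24 h (13.6 to 27.7%), 50.7% in set 1 (38.4 to 63.0%) and 40.2% in set 2 (32.8 to 48.0%), and 22.4% in control cells. The intervals of both sets also lay above that of control cells (16.3 to 29.6%). *ndufc1*, another subunit of complex I, was at 74.3 CPM at 24 h, 217.4 CPM in set 1, 235 CPM in set 2 and 123.1 CPM in control cells, in 6.67% of cells at 24 h (3.09 to 12.3%), 26.1% in set 1 (16.3 to 38.1%) and 22.5% in set 2 (16.4 to 29.5%). The lower genes were *ndufa1* and *sdhb*, a subunit of complex II at 178.8 CPM at 24 h, 85.8 CPM in set 1 and 71.9 CPM in set 2. None of 12 tested protein-coding genes of the mitochondrial chromosome was called, and they had entered the rule that chose the cells. Of 14 tested genes of glycolysis and glucose entry, *pdha1a*, of the pyruvate dehydrogenase complex, was called higher from 12.7 CPM at 24 h to 151.4 and 83.8 CPM in the sets, and *tpi1b*, a glycolytic enzyme, lower from 367 to 147.3 and 118.3 CPM, which shrank from -1.53 to -0.73 on the log2 scale without cells holding another hormone.

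Of 73 tested cytosolic ribosomal proteins, 1 was called higher and 0 lower, with a median log2 ratio of -0.14. That gene, *rpl14*, was at 74.9 CPM at 24 h, 234 CPM in set 1, 175.4 CPM in set 2 and 217.7 CPM in control cells, and its shares of cells, 25.2%, 39.1% and 35.5%, had overlapping intervals. Of 19 tested proteasome subunits 2 were called higher and 1 lower, and of 25 tested translation factors 4 were called higher and 1 lower. Beside the counts of each list here stand 13.1% higher and 7.17% lower over all tested genes. Among the 796 genes that reached 25% of cells on both sides, 48 were higher and 45 lower. *psmc3*, a proteasome ATPase, was read in 2.22% of thinned cells at 24 h (0.461 to 6.36%), 14.5% in set 1 (7.17 to 25.0%) and 14.2% in set 2 (9.32 to 20.4%), but 97.8% of its 24-h counts came from 1 cell. *psmd8* was the other higher subunit and *psmc1a* the lower one, and the translation factors were *eif4ebp1*, *eif3d*, *eif2s2* and *eif5*, higher, and *eif3ba*, lower. In the lysosome list 2 of 10 tested genes were called higher, namely the protease *ctsla* and the proton pump subunit *atp6v1h*, each with at least 50.8% of its 24-h counts in 1 cell.

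**Figure D5:**
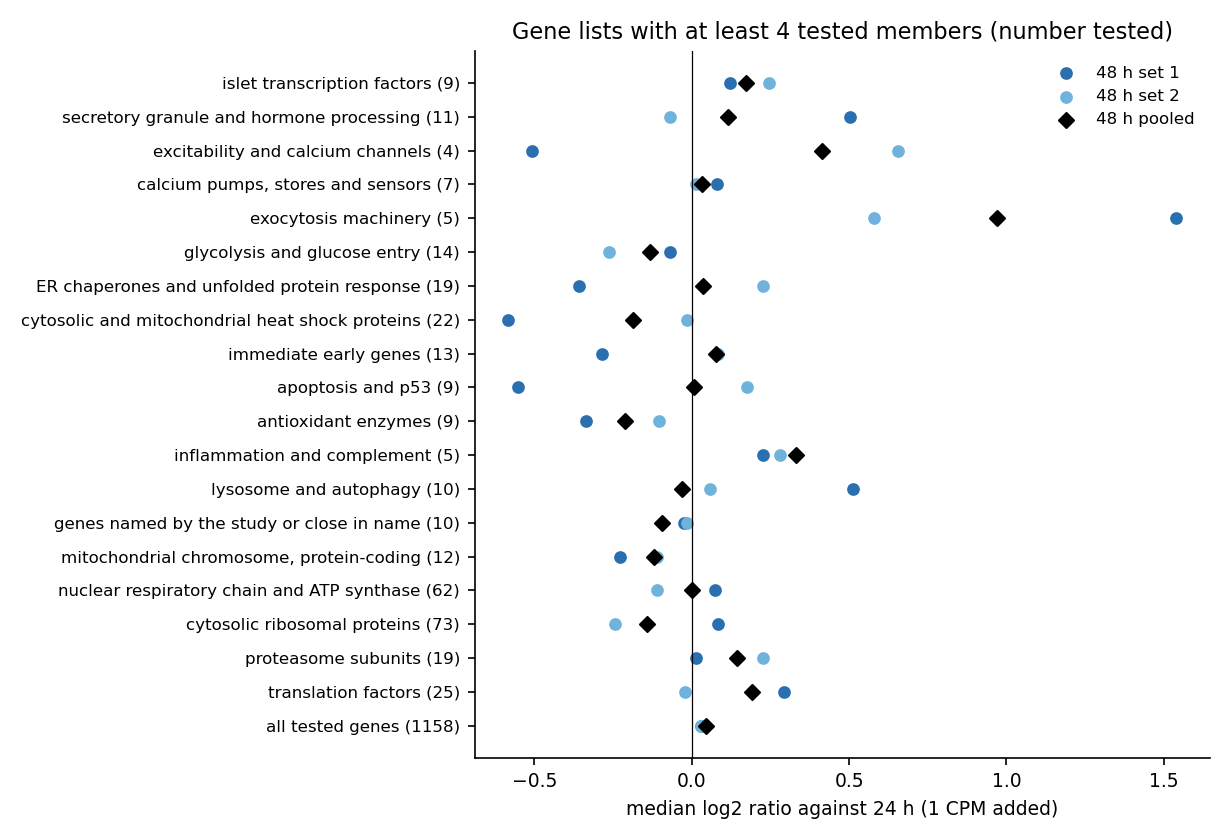
Points are the median log2 ratio against 24 h (1 CPM added) over the tested members of each gene list with at least 4 such members, for set 1, set 2 and the pooled 48-h cells; the number in brackets is the number tested, and the last row holds all 1158 tested genes. The sets lie on opposite sides of 0 for several lists, among them ER chaperones (-0.36 and 0.23) and cytosolic ribosomal proteins (0.08 and -0.24).

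Thinning the cells before the levels were compared left 335 tested genes, of which 13 were called higher and 2 lower. The 13 were *bag3*, *gcga*, *gcgb*, *calm3b*, *rpl14*, *anxa5b*, *apodb*, *ppt1*, *gnb1b*, *calb1*, *tspan18a*, *c2cd4a* and *psmc6*, and 11 of them had also been called without thinning. Apart from those described above, they are named here after their values were seen. *calb1*, a calcium-binding protein that buffers calcium in neurons, was at 229 CPM at 24 h, 892 CPM in set 1, 634 CPM in set 2 and 226 CPM in control cells without thinning, in 9.63% of thinned cells at 24 h, 24.6% in set 1, 30.2% in set 2 and 14.5% of control cells. *gnb1b*, a G protein subunit, was at 131.03 CPM at 24 h, 513 CPM in set 1 and 560.2 CPM in set 2. *ppt1*, a lysosomal enzyme, was at 147.2, 680 and 454 CPM in the same order, and *c2cd4a* at 302, 684 and 907 CPM beside 871 CPM in control cells. The lower genes were *sqstm1*, an adaptor of autophagy, and *arg2*, mitochondrial arginase, the latter at 804 CPM at 24 h, 50.5 CPM in set 1 and 384 CPM in set 2.

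Markers of other cell types moved with some of these results. *apodb* and *anxa5b*, a calcium-dependent phospholipid-binding protein, were called higher at levels of at most 17.8 CPM. *apodb*, on the iridophore list, was at 0.475 CPM at 24 h, 14.1 CPM in set 1 and 5.49 CPM in set 2, and was read in 2.96% of thinned cells at 24 h (0.813 to 7.41%), 44.9% in set 1 (32.9 to 57.4%) and 23.1% in set 2 (16.95 to 30.2%). In the low-insulin wells of the 48-h plate *apodb* stood at 11842 CPM in set 1 and 9330 CPM in set 2, with more than 1000 counts in 30 of 56 wells, against 0.419 CPM in 13 such wells at 24 h. The whole iridophore list of 14 genes summed to 129.4 CPM at 24 h, 91.5 CPM in set 1 and 145.5 CPM in set 2. Its 4 tested genes all had higher pooled levels at 48 h, by a median of 1.02 on the log2 scale. For these 4 genes set 1 alone gave a median of 1.52 and set 2 one of 0.83, beside 0.05 for the pool over all tested genes. Of the 4, *apodb* passed the limit for testing only through the 48-h cells, so the filter in part fixed this direction. The medians of the 4 are therefore a description and do not counter the sums of the whole list. The defining markers *pnp4a* and *gpnmb* stayed at or below 2.57 CPM in every group of insulin-high cells. In the low-insulin wells *pnp4a* reached 2007 CPM in set 1 and 383 CPM in set 2, against 7.13 CPM at 24 h. *gpnmb* reached 2075 and 2232 CPM there, against 0 CPM at 24 h. Insulin-high control cells held 3.31 CPM of *apodb*, in 15.8% of thinned cells, and so lay above 24 h. They held 3.45 CPM of *anxa5b*, in 13.9% of thinned cells against 2.22% at 24 h. The 6 low-insulin control wells held 2.02 CPM of *apodb* and 3.70 CPM of *anxa5b*. The part of RNA from the low-insulin 48-h wells in the rises of *apodb* and *anxa5b* was not tested. Hepatocyte markers summed to 1453 CPM at 24 h, 2.99 CPM in set 1 and 33.5 CPM in set 2, and 96.3% of the 24-h counts on this list lay in 1 cell, which held 5602 *ins* counts. *serpina1*, a liver protease inhibitor called lower from 22.1 to 1.798 and 0.865 CPM, reversed to 0.18 without that cell, and 82 genes were then lower. Acinar markers summed to 131.9 CPM at 24 h, 1028 CPM in set 1 and 86.6 CPM in set 2, and markers of macrophages and neutrophils stayed at or below 4.56 CPM in every group. The ductal marker *krt18b* was called at 0.0559 CPM at 24 h, 1.798 CPM in set 1 and 2.40 CPM in set 2, with 64.8% of its 48-h counts in 1 cell.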

How the data were processed

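The authors deposited raw counts of reads per gene and well. By the labels and the methods of the study, reads were converted with bcl2fastq 2.19.1, aligned to GRCz11 with GSNAP 2019-06-10 and counted with featureCounts 2.0.1 on Ensembl release 95. The table holds 32520 genes and 92 spike-in RNAs, which were left out of all totals. Names were found for 29210 genes. Symbols listed in capitals were completed from RefSeq symbols of the same letters on the same chromosome for 10577 genes, and names in the study's own gene tables were used where given. Of 258 completed names found there, 243 were identical. A further 4 columns, of wells without a treatment label, were not used.

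The limits kept 135 of 154 wells at 24 h, 69 of 143 in 48-h set 1, 169 of 223 in set 2 and 165 of 173 control wells. By the rule for calls, 152 of 1158 tested genes were higher and 83 lower at 48 h. Counts were pooled within each group. No test was run because each duration is 1 sample. Kept cells had between 76639 and 1084020 gene counts in the channel-bearing groups. Levels below about 10 CPM are a few reads per cell. Thinning drew 50000 counts per cell without replacement with a fixed seed. Named genes were *ins*, the genes the study names, the 15 called genes with the largest rise and up to 15 with the largest fall without a cell of more than 20% of the counts, called members of 23 gene lists (or the 2 members with the highest level where none was called), and called markers of 16 cell types. A gene among the largest rises is not reported here. The members and lists were chosen with earlier results of these data known. Alternatives covered the weight of cells, the denominator, scaling, the pseudocount, filters, thinning, the limits on cells, other hormones, the top cell, each 48-h set and the fold. The number of cells and the cell with liver genes were added after the data were seen. Calls were tested on simulated data with 4-fold changes, to check that the rule finds them. The simulation held no difference between plates or sets, so it does not measure how often calls in the real data are wrong. The software was Python 3.11.15 with scipy 1.17.1, numpy 2.4.6 and pandas 2.3.3, and figures were drawn with matplotlib 3.10.9.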

Additional observations from a re-analysis of the deposited data

Results flagged for a closer look

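The 48-h sets lay at least 2-fold away from 24 h in opposite directions for 20 genes (1.73% of those tested), which drew attention because both sets share a plate and a duration. For 16 of them set 1 was lower and set 2 higher than 24 h, and for 4 the reverse held. Neither the labels nor the study say what a set is, so the sets were not taken as replicates and the difference was not tested. *junbb*, an immediate early transcription factor, was at 445 CPM at 24 h, 208.8 CPM in set 1 and 1063 CPM in set 2. *hspb1*, a small heat shock protein, was at 255, 93.8 and 542 CPM in the same order, although its share of thinned cells was 20.7% at 24 h, 40.6% in set 1 and 29.6% in set 2.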

How the results depend on the processing

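No paired analysis was possible because each duration is 1 plate, and the numbers of the wells pair nothing across plates. Calls are given as percentages of the tested genes, higher first. A limit of 10% of cells gave 18.9% (655 of 3471 genes) and 14.03% (487), and no limit gave 6.62% (1594 of 24071) and 8.68% (2089). Thinned cells gave 3.88% and 0.597% of 335 genes. Equal numbers of cells, the 69 deepest of 24 h and of each set, gave 18.4% and 10.3%, and a limit of 1.5-fold raised the lower genes to 12.95%. Leaving out either 48-h set gave 17.5 to 27.7% higher and 14.5 to 17.8% lower. The other alternatives stayed within 1.5 times of the reported counts, although leaving out the top cells moved the median log2 ratio of all genes from 0.05 to 0.29. Counts in this range did not hold all the same genes. Of the 83 lower genes, 57 were called again without cells holding another hormone and 70 without the limit on *ins*. A mitochondrial limit of 20% kept 67, and averaging the CPM of single cells kept 62. Under each of these some higher genes were not called again either. The called genes named by the rules given with the processing were 37 higher and 15 lower. Of these, 29 higher and 8 lower genes were past 2-fold in the pool under every alternative that changes the ratio. These counts are in part fixed. A call already required the pool and each set to be 2-fold away, so leaving out either set could not undo it. Among the named called genes, the log2 ratio reversed for *atf4b* (0.10) and *serpina1* (0.23) without cells holding another hormone. It also reversed for *serpina1* without the top cells (0.065) and without the cell with liver genes (0.18). With equal numbers of cells it reversed for *psmc3* (-0.0025). Genes that were not called could also change sign. Among them were *nfkbiab* (-0.97 to 1.75) and *acin1b* (-0.50 to 0.48) without cells holding another hormone. The causes were not tested, other than the cells and genes each alternative leaves out.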

Other observations

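The gene that separated most single cells of the durations was the large mitochondrial ribosomal RNA, listed as *NC_002333.4* at positions 2043 to 3725 of the mitochondrial chromosome, where RefSeq places *mt-rnr2*. It was chosen after its values were seen and was not among the 13 genes behind the mitochondrial limit. Its pooled level was 30900 CPM at 24 h (30859 to 30940), 44544 CPM in set 1 (44469 to 44618), 49113 CPM in set 2 (49064 to 49161) and 19647 CPM in control cells. In single cells it ran from 1944 to 95657 CPM at 24 h with a median of 28601 CPM, from 9867 to 103231 CPM in set 1 with a median of 42412 CPM and from 4738 to 159803 CPM in set 2 with a median of 44414 CPM, and the groups overlapped. It was higher in the 48-h cell in 75.1% of pairs, although its log2 ratio of 0.63 is under 2-fold. In the opposite direction, *ppdpfb*, named for a pancreatic progenitor factor, was at 20414 CPM at 24 h, 12416 CPM in set 1, 11659 CPM in set 2 and 12812 CPM in control cells, and was lower in the 48-h cell in 65.1% of pairs. *hsp70.3* was the other gene of this direction, lower in 60.3% of pairs. Of 23 genes higher in at least 60% of pairs, 6 were called and 7 encode ribosomal proteins, beside 73 cytosolic ribosomal proteins among the 1158 tested genes, of which 20 had a log2 ratio above 0 and 53 one below 0. *rps26* and *rpl31* are among the 7. *rps26* was read in 32.6% of thinned cells at 24 h and 57.97% and 57.99% in the sets, and *rpl31* in 36.3%, 68.1% and 60.9%. The gene next to *NC_002333.4* in this order was *defbl1*, on the list of iridophore markers, higher in the 48-h cell in 72.2% of pairs. It was at 16.4 CPM at 24 h, 41.4 CPM in set 1 and 32.3 CPM in set 2, and was read in 9.63% of thinned cells at 24 h (5.23 to 15.9%), 76.8% in set 1 (65.1 to 86.1%) and 41.4% in set 2 (33.9 to 49.2%). The median cell held 0 CPM at 24 h, 36.6 CPM in set 1 and 9.83 CPM in set 2. Single cells reached 4219 CPM at 24 h, 199.2 CPM in set 1 and 4537 CPM in set 2, which weighs on the pooled levels. Control cells held 9.45 CPM of it, in 23.6% of thinned cells (17.4 to 30.9%). Low-insulin wells, which passed the other limits with at most 1000 *ins* counts, held 32276 CPM of it in set 1 and 28209 CPM in set 2, against 1.47 CPM at 24 h, and the part of RNA from those wells was not tested. All of these shares move with the larger number of genes detected per thinned 48-h cell, whose part was not tested.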
